A study of Mus musculus with 2 samples.

Results

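The genes described here are 10 immediate-early and short-lived mRNA genes, Jun, Junb, Jund, Fos, Egr1, Ier2, Ier5, Btg1, Btg2 and Atf4, chosen by their names in the deposited tables of N6-methyladenosine (m6A) in mouse retinal organoids. The tables name 8262 genes, and 8 of the 10 are among them, since Fos and Junb have no row. The study asks where m6A, the methyl mark that METTL3 writes, lies in early retinal development. Poly(A) RNA of organoids at day 6 was read directly, without copying to cDNA, by nanopore sequencing of 2 libraries, replicate 1 and replicate 2. Both came from wild-type cells of the Rx:GFP line, a mouse stem cell line with a green fluorescent reporter of the eye-field gene Rax, grown with AGN at 0.1 µM for 6 days. They form 1 group, so no contrast between conditions exists. Whether the replicates came from separate cultures is not stated, and the spread between them may be technical. The line is a reporter line, and the organoids are mixed tissue sequenced in bulk. In such samples fewer cells of a type and less RNA per cell cannot be told apart.

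Immediate-early genes are switched on within minutes of a growth signal or a stress, without new protein synthesis, and their mRNAs are removed quickly again. The Jun and Fos proteins pair to form the transcription factor AP-1, Egr1 is a zinc-finger transcription factor induced in the same way, and Atf4 is the transcription factor of the integrated stress response. m6A is found mainly in a short consensus around a central adenosine, and YTH-domain proteins that bind it can recruit the machinery that shortens the poly(A) tail and degrades the mRNA. Short mRNA half-life and m6A are therefore often studied together, though mRNA stability was not measured in these libraries.

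A row of the tables is a position on an Ensembl transcript. It comes with its 5-mer (the 5 bases around it), the share of reads scored as modified there, called the fraction, and the coverage in reads. Only 4 motifs occur. They are given here because the fraction depends on them, and in each the m6A consensus places the methyl group on the adenosine before the cytosine. A site was a listed position with at least 20 reads in its library. At GGACA the median fraction over all sites was 0.674 in replicate 1 and 0.667 in replicate 2, by far the highest. At AGACT these medians were 0.267 and 0.263. They came to 0.25 and 0.230 where the motif was GGACT, and to 0.219 and 0.231 where it was GGACC. Each site of a member gene was therefore set against the median of its own 5-mer in its own library. A positive difference from that median means a fraction above the typical site of the same motif.

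Replicate 1 listed 26441 positions with a median coverage of 10 reads, and replicate 2 listed 50099 with a median of 12. Of the fixed markers, 7 of 8 eye-field genes were listed in each library, against 0 of 5 pluripotency genes, 0 of 4 mesoderm or endoderm genes and 1 of 3 neuronal genes. A gene can be listed only where a motif has at least 5 reads, so an unlisted gene is not shown to be silent.

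The member genes had 60 positions in either library and fell into 4 sets. Ier2, Jund and Btg1 had 18 sites shared by both replicates (9, 6 and 3). Jun, Ier5 and Atf4 had sites in replicate 2 only (9, 9 and 1). Btg2 and Egr1 were listed below 20 reads only. Junb and Fos had no row under their names in either library, although 219 and 533 positions carry no gene name. In all, 19 member sites were counted among 6463 sites of replicate 1 and 39 among 16212 of replicate 2, with 1 found only in replicate 1 and 21 only in replicate 2. Over all genes, 5221 of the 6463 sites of replicate 1 were shared, and 10991 of the 16212 sites of replicate 2 were found only there. Just inside the minimum in replicate 1 was position 504 of Ier2 with 20 reads, and just outside it position 663 of Ier2 with 18 and position 836 of Atf4 with 17.

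The 18 shared sites had a median fraction of 0.534 (replicate 1) and 0.617 (replicate 2), or 0.576 ± 0.0589 (SD, n = 2). Over all 5221 shared sites of the libraries it was 0.375 and 0.362. The median difference from the 5-mer median was 0.269 and 0.277 at the member sites, or 0.273 ± 0.00523 (SD, n = 2), against 0.00975 and 0.0015 over all shared sites. In both replicates 13 of the 18 lay above the median of their 5-mer, where 45.1% of all shared sites did, and 4 lay below it, where 43.9% did. Ier2 supplied 7 of the 13. Without Ier2, 6 of 9 sites were above and the median difference was 0.240. Without a coverage minimum the median difference was 0.146, and 21 of 42 positions were above, where 40.1% of all positions listed in both were. These 18 sites lie on 3 transcripts, and sites of 1 transcript share reads. The members were chosen with results known, so no test was run on the list. For any difference printed here, the smallest p that an exact paired permutation of 2 replicates allows is 0.5, so none is given.

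**Figure D1:**
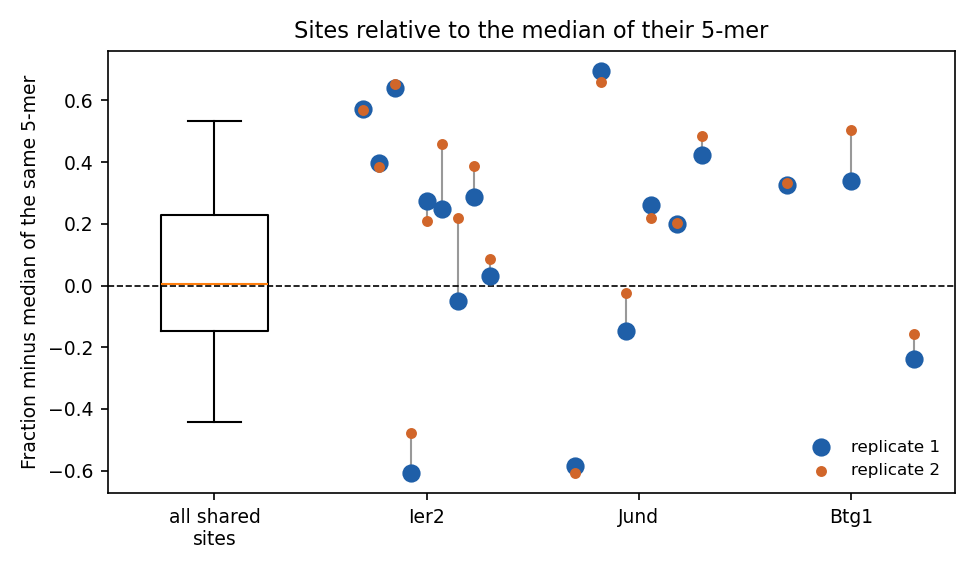
Fraction modified minus the median of the same 5-mer in the same library (y axis) at the 18 shared sites of Ier2, Jund and Btg1, ordered by position, with a line joining the replicates. The box shows the quartiles and the whiskers the 5th and 95th percentiles of all 5221 shared sites (-0.443 and 0.533). Both are of the mean over the replicates, while the points are single libraries. At 13 sites both points lie above 0, while the lowest site of Ier2 and that of Jund lie below the lower whisker in both libraries.

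The motif composition of the member sites is given as counts, without a test. GGACT made up 9 of the 18 shared member sites (23.8% of all shared sites had this motif) and GGACA 5 (38.3% of all). GGACC had 3 (22.3% of all) and AGACT 1 (15.6% of all). Of the 21 sites in replicate 2 only, 9 were AGACT, 7 were GGACC, 4 were GGACT and 1 was GGACA. Jun and Ier5 held 9 of these 21 each. The motif shares over all sites found only in replicate 2 were not computed, so these counts have no share beside them. By motif, 7 of the 9 GGACT sites were above their median in both replicates, where 46.5% of all shared GGACT sites were. All 3 GGACC sites were above theirs, beside 42.9% of that motif over all shared sites, and so was the AGACT site, beside 43.0%. GGACA was divided, with 2 sites above and 3 below (46.4% and 44.6% of all shared GGACA sites).

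Of the AP-1 genes among the members, Jund had the deepest record. Its protein is a Jun-family subunit of AP-1, known to be expressed more constantly than Jun and Fos. The gene was listed on chromosome 8, 71151599 to 71153265, with transcript ENSMUST00000095267.5 (deposited coordinates, build not settled). Its 6 shared sites had 46 to 50 reads in replicate 1 and 72 to 82 in replicate 2. The mean fraction over them was 0.460 and 0.465, or 0.462 ± 0.00336 (SD, n = 2).

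That mean joins sites at opposite ends of the scale. At position 883, a GGACA, the fraction was 0.0882 in replicate 1 and 0.06 in replicate 2 (percentiles 3.91 and 3.12 of all GGACA sites in their libraries). At position 1162, a GGACT, it was 0.946 and 0.891 (percentiles 97.7 and 95.9 of its motif). The motif with the higher typical fraction thus held the lower value here, in both libraries.

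From position 1162 to 1229, 5 shared sites of Jund lay within 68 nt. At position 1189, also a GGACT, the fraction was 0.103 and 0.206, below the GGACT median in both replicates (percentiles 24.1 and 46.8). Position 1200, an AGACT, had 0.529 and 0.482, and position 1215, a GGACT, had 0.45 and 0.432. Position 1229, a GGACC, had 0.643 and 0.717. Ranked by fraction, the 5 sites had the same order in both libraries, with position 1162 highest and position 1189 lowest. The closest neighbours in that order, positions 1200 and 1215, differed by 0.0642 ± 0.0214 (SD, n = 2).

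Positions 1162 and 1189 carry the same 5-mer 27 nt apart. Their fractions differed by 0.843 in replicate 1 and 0.684 in replicate 2, a mean difference of 0.764 ± 0.112 (SD, n = 2), which is larger than the spread between replicates. Reads covering them were nearly the same in number, 49 and 50 in replicate 1 and 80 and 81 in replicate 2. A wide range within 1 gene was usual in these libraries: the range of the Jund site means was 0.844, and the median range over 174 genes with at least 6 shared sites was 0.802. A further GGACC at position 547 was a site in replicate 2 only, with 0.158 over 69 reads, and was not listed in replicate 1, where all other listed positions of the transcript had 46 or more reads.

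**Figure D2:**
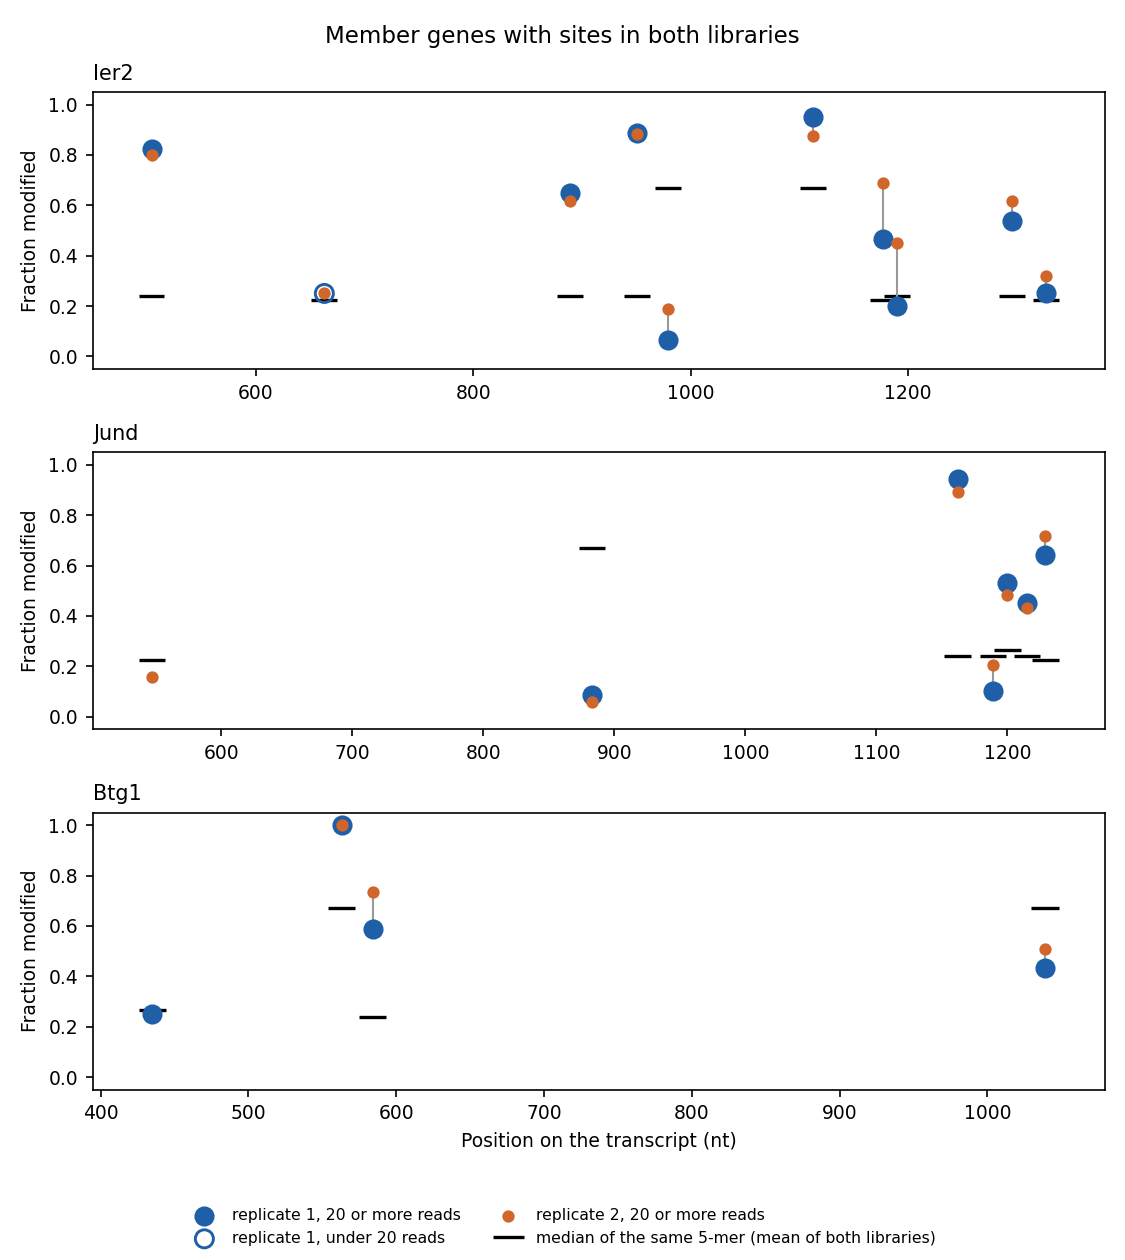
Fraction modified (y axis) against position on the transcript in nt (x axis) for Ier2, Jund and Btg1. Large blue points are replicate 1, small orange points replicate 2, open points have under 20 reads, grey lines join replicates, and black bars give the median of the same 5-mer. Most points lie above their bar, with position 979 of Ier2 (0.0667 and 0.188) and position 883 of Jund (0.0882 and 0.06) far below it.

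Jun, the founding subunit of AP-1, had 16 listed positions on transcript ENSMUST00000107094.1 (chromosome 4, 94937271 to 94940459), the most of any member. None reached 20 reads in replicate 1, where coverage was 6 to 12. In replicate 2 it was 10 to 27, and 9 positions were sites. Their fractions ran from 0.130 to 0.952, with a median of 0.25, and 4 of the 9 lay above the median of their 5-mer, where 49.3% of all sites found only in replicate 2 did.

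The highest of these was a GGACC at position 2264, at 1 (12 reads) in replicate 1 and 0.952 (27 reads) in replicate 2. GGACC is a motif of low typical fraction, and 98.4% of GGACC sites of replicate 2 lay below this value. Position 1964, an AGACT, had 0.714 over 12 reads and 0.727 over 23. Position 2085, a GGACT, had 0.333 in both. At the other sites of this 3′ stretch, position 2189 had 0.111 and 0.211, position 2231 had 0.286 and 0.158, position 2327 had 0.333 and 0.25, and position 2410 had 0.130 in replicate 2 alone.

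Toward the 5′ end, the sites at positions 945 and 1128, both GGACC with 20 reads in replicate 2, had fractions of 0 and 0.167, and of 0.6 and 0.357. Position 639, a GGACT, had 0.857 over 10 reads and 0.923 over 18, short of the minimum in both. The positions 125 and 132 of Jun carry the same 5-mer, GGACT, 7 nt apart. Position 125 had 0 in both libraries over 8 and 16 reads. Position 132 had 0.75 and 0.636 over the same numbers of reads. The mean difference was 0.693 ± 0.0803 (SD, n = 2), at depths under the minimum.

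The last listed position of Jun, 3044, had 6 reads in replicate 1 and 10 in replicate 2, fewer than the 11 and 27 at position 2189. This drop toward the 3′ end was seen in both libraries. At the 8 sites of Jun listed in both libraries, the fraction was higher in replicate 2 at 3, lower at 4 and equal at 1, with a root mean square difference of 0.124. Over all 4666 positions with 10 to 19 reads in replicate 1 and at least 20 in replicate 2 that difference was 0.166.

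Ier2 had the most shared sites of the members. It encodes a small nuclear protein induced in the immediate-early response, and was listed on chromosome 8, 85387960 to 85389483, with transcript ENSMUST00000060427.4. Its 9 shared sites had 20 to 25 reads in replicate 1 and 38 to 43 in replicate 2. Of 1887 genes with a shared site, 41 (2.17%) had at least as many, and the median was 2. The mean fraction was 0.537 and 0.604, or 0.571 ± 0.0478 (SD, n = 2).

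Relative to its motifs Ier2 was high at most positions. The mean difference from the 5-mer medians was 0.199 in replicate 1 and 0.277 in replicate 2. Among 790 genes with at least 3 shared sites this placed it at percentile 88.9 and 95.9, where the median gene had 0.0330 over both replicates. The same measure was 0.142 and 0.156 for Jund (percentiles 78.7 and 82.2) and 0.141 and 0.226 for Btg1 (percentiles 78.6 and 92.2). These ranks are descriptions of the libraries at these depths, and the room above the median differs between motifs.

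GGACT was the most frequent motif of Ier2, with 5 of its 9 shared sites. Position 951 had 0.889 in replicate 1 and 0.885 in replicate 2 (percentiles 94.9 and 95.5 of GGACT sites), and position 504 had 0.824 and 0.8. Position 889 had 0.647 and 0.615, and position 1296 had 0.538 and 0.619. All 4 lay far above the GGACT medians of 0.25 and 0.230 in both libraries. The remaining GGACT, position 1190, had 0.2 over 25 reads and 0.45 over 43, and was the 1 shared member site that fell on opposite sides of its median in the libraries.

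The GGACA sites of Ier2 stood at both ends of the scale. Position 1113 had 0.95 and 0.875, above the GGACA medians. Position 979 had 0.0667 and 0.188, percentiles 2.83 and 12.3 of all GGACA sites. Their mean difference was 0.785 ± 0.138 (SD, n = 2), larger than the spread between replicates. Position 979 lies 28 nt from position 951, the highest GGACT of the gene, and the difference between those neighbours was 0.822 and 0.697. Of the GGACC sites, position 1177 had 0.467 and 0.690, above the GGACC median by 0.248 and 0.459. Position 1327, with 0.25 and 0.318, and position 663, a site in replicate 2 only with 0.25 in both over 18 and 37 reads, were near that median.

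Ier5, a related immediate-early gene whose product is known for its link to heat shock factor 1, was listed on chromosome 1, 154972107 to 154975382, with transcript ENSMUST00000055322.5. It had 6 to 9 reads in replicate 1 and 14 to 23 in replicate 2, and 9 sites in replicate 2 only. Their fractions in replicate 2 ran from 0 to 0.765, with a median of 0.286, and 6 of 9 lay above the median of their 5-mer (49.3% of all sites found only in replicate 2). The highest were the GGACT at position 1572 with 0.765, the AGACT at position 1250 with 0.714, the GGACT at position 1485 with 0.583 and the AGACT at position 1652 with 0.571. Position 1772, a GGACC, had 0 over 23 reads and was not listed in replicate 1.

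Of the members with positions in both libraries, Ier5 differed most between them. At position 1250 the fraction was 0 over 7 reads in replicate 1 against 0.714 over 21 in replicate 2, and at position 1652 it was 0 over 7 against 0.571 over 23. At position 1572 it was 0.6 against 0.765, and at position 1485 it was 0.333 against 0.583. Of its 8 sites listed in both, 7 were higher in replicate 2 and 4 had a fraction of 0 in replicate 1, and the root mean square difference was 0.361. With the 2 further positions under 20 reads in both, 9 of 10 were higher in replicate 2. Over all 2234 positions with 5 to 9 reads in replicate 1 and at least 20 in replicate 2, it was 0.215, with 43.8% higher in replicate 2 and 22.7% at 0 in replicate 1. The positions of Ier5 in replicate 1 rest on 6 to 9 reads of 1 transcript and are not independent of each other. Depth moves with this difference and its part in it was not tested.

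**Figure D3:**
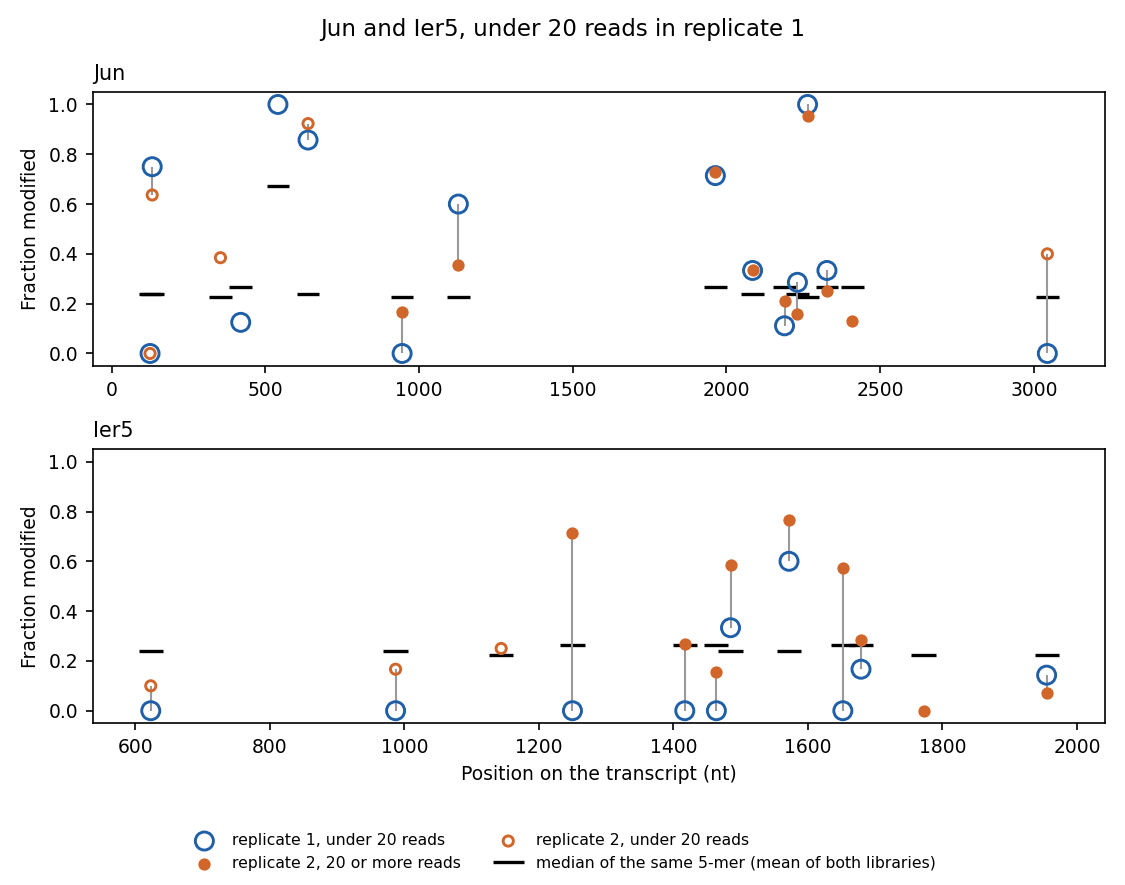
Fraction modified (y axis) against position on the transcript in nt (x axis) for Jun and Ier5. Open points have under 20 reads, filled points 20 or more, large blue points are replicate 1, small orange points replicate 2, and black bars give the median of the same 5-mer. The replicates lie close together at the 3′ sites of Jun such as position 2264 (1 and 0.952), and far apart at positions 1250 (0 and 0.714) and 1652 (0 and 0.571) of Ier5.

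Btg1 and Btg2 encode antiproliferative proteins that bind the CCR4-NOT deadenylase, the complex that shortens poly(A) tails. Btg1 was listed on chromosome 10, 96452868 to 96458671, with transcript ENSMUST00000038377.8, at 23 to 30 reads in replicate 1 and 70 to 86 in replicate 2. Its GGACA at position 563 had a fraction of 1 in both libraries, over 25 and 70 reads. This was the highest value of any shared member site. The GGACT at position 584 had 0.588 and 0.733, above the GGACT median in both, and the GGACA at position 1039 had 0.435 and 0.509, below the GGACA median in both libraries.

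The GGACA sites of Btg1 thus differed by 0.565 and 0.491, a mean of 0.528 ± 0.0523 (SD, n = 2), with the upstream site higher. The mean over the 3 shared sites was 0.674 and 0.747, or 0.711 ± 0.0516 (SD, n = 2), the highest of the 3 genes. It exceeded that of Jund (0.462 ± 0.00336, SD, n = 2) by more than the spread between replicates. It also lay above that of Ier2 in both replicates, with 2 of its 3 sites on GGACA, the motif of the highest median. Taken against the 5-mer medians the order was another, with 0.238 ± 0.0549 for Ier2, 0.184 ± 0.0600 for Btg1 and 0.149 ± 0.0103 for Jund (each SD, n = 2). Neighbours in that order differed by less than the larger of their SDs. Within each library Ier2 lay above Btg1 (0.199 against 0.141, and 0.277 against 0.226). Btg1 lay above Jund in replicate 2 only (0.226 against 0.156). Since no fraction exceeds 1, the difference at a GGACA can reach at most 0.326 and 0.333, the values of position 563. This order too may depend on motif, which was not tested. An AGACT at position 435 had 0.25 over 23 reads in replicate 1 and was not listed in replicate 2, although every listed position of the transcript there had 70 or more reads.

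Btg2 was far shallower. It was listed on chromosome 1, 134002908 to 134006858 (transcript ENSMUST00000020692.6), with 1 position at 5 reads in replicate 1 and 5 positions at 6 to 9 reads in replicate 2. No position was listed in both. The fraction at position 1233 was 0.667 in replicate 1. In replicate 2 it was 1 at position 292, 0.5 at position 326, 0 at positions 1748 and 2398, and 0.286 at position 2535. At this depth a difference between Btg2 and Btg1 was not detectable.

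Atf4 had 1 site, in replicate 2 only. The gene was listed on chromosome 15, 80139385 to 80141742, with transcript ENSMUST00000109605.3. Its GGACA at position 836 had 1 (17 reads) in replicate 1 and 0.926 (62 reads) in replicate 2, above 80.1% of the GGACA sites of replicate 2. An AGACT at position 980 had 0 over 17 reads in replicate 1 and was not listed in replicate 2.

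Egr1 was listed in replicate 2 alone, on chromosome 18, 34992876 to 34998037 (transcript ENSMUST00000064795.5), with 8 to 12 reads. The fraction was 0.5 at position 2569, 0.429 at position 2929 and 0.222 at position 3252. None of these positions reached the minimum, and no value of replicate 1 stands beside them. For Fos, the AP-1 partner of the Jun proteins, and for Junb, a Jun-family subunit that often opposes Jun, the tables hold no value.

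The member sites agreed between the libraries about as closely as other sites. The fraction was higher in replicate 2 at 9 of the 18 shared sites, lower at 8 and equal at 1, and the root mean square difference was 0.104, against 0.0999 over all shared sites. For Jund it was 0.0615, for Btg1 0.0940 and for Ier2 0.127. Over all shared sites with 20 to 29 reads in replicate 1, the depth of Ier2 and of most of Btg1, it was 0.120. A difference above 0.2 was seen at 2 of the 18 sites, positions 1177 and 1190 of Ier2, which lie 13 nt apart and were both higher in replicate 2 (by 0.223 and 0.25). Across all shared sites 310 of 5221 differed by that much, and 183 of the 1912 with 20 to 29 reads in replicate 1 did. Coverage in replicate 2 was 1.57 to 2.87 times that in replicate 1 at the member sites, with a median of 1.76.

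**Figure D4:**
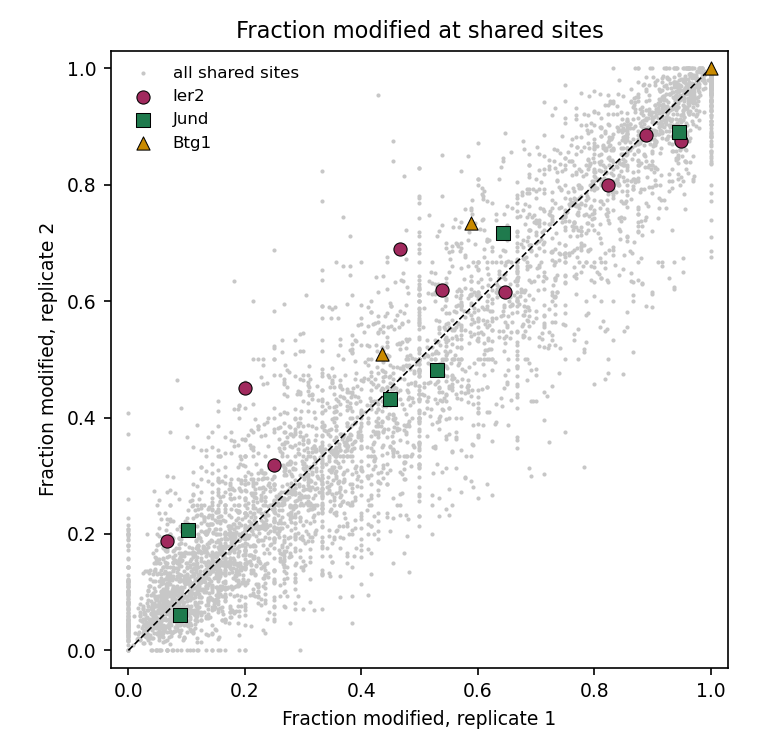
Fraction modified in replicate 1 (x axis) and replicate 2 (y axis) at all 5221 shared sites (grey) and at the sites of Ier2, Jund and Btg1 (coloured), with the line of equality dashed. The Jund sites lie close to the line, while positions 1177 (0.467 and 0.690) and 1190 (0.2 and 0.45) of Ier2 lie above it.

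A list of 42 related genes was looked up in the same way: AP-1 and ATF factors, other inducible early genes, the BTG and TOB family, and proteins that bind AU-rich elements in short-lived mRNAs. Of these, 15 were listed in replicate 1 and 23 in replicate 2, and 3 had a shared site, with 7 shared sites in all. In both replicates 2 of the 7 lay above the median of their 5-mer and 4 below it, beside 45.1% and 43.9% of all shared sites. A further 4 genes had sites in replicate 2 only.

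Elavl1, whose protein binds AU-rich elements and stabilises mRNAs, had 4 of these shared sites with a mean fraction of 0.264 ± 0.0202 (SD, n = 2), and 3 of them lay below their 5-mer median in both. Mcl1, an antiapoptotic BCL2 family member with a short-lived mRNA, had 2, with means of 0.377 and 0.440. Zfp36l1, which recruits the deadenylase to AU-rich elements, had 1, with 0.111 and 0.128. Of the 12 AP-1 and ATF genes on this list 0 had a shared site, and of the 4 BTG and TOB genes 0 had a site in either library. Together with Jun, whose coverage stayed at 12 or below in replicate 1, this leaves Jund as the 1 AP-1 gene, of those looked up, with values at 20 or more reads in both libraries.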

How the data were processed

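Per the labels, each library took 1 µg of poly(A) RNA, the RNA002 direct RNA kit and about 48 h on a flow cell of its own. Both columns used are as deposited by the authors, the coverage as a read count for each position and the modification score as a fraction from 0 to 1. The denominator of the fraction is not stated, and only 39.3% and 35.9% of the values are whole multiples of 1 over the coverage (within 0.01 reads), so no read counts, intervals or tests were derived from it. Base caller, aligner and modification caller are not given in the sources used here. The submitters' processing notes name mm10, yet the gene starts of 0 of 8 listed members lie within 1000 bases of RefSeq's on GRCm38.p6, so deposited coordinates are given and no transcript sequence was read. Which base of the motif a position marks is not stated.

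Positions were matched on transcript and end position with Python 3.11.15 and pandas 2.3.3, and the calculation was tested on simulated data. SD is over the 2 replicates. A percentile is the share of sites of the same 5-mer and library with a lower fraction. The members, the lists and the rule that names all members and the related genes with the most shared sites (up to 5; 3 had any) were chosen with earlier results of these data known. The minus tables held no member position. The alternatives are given at the end.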

Additional observations from a re-analysis of the deposited data

How the results depend on the processing

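The coverage minimum set most counts. Without a minimum, member sites numbered 47 in replicate 1, 42 in both and 13 in replicate 2 only; 21 were above and 11 below the median of their 5-mer in both replicates (40.1% and 38.2% of all such positions). The median fraction was then 0.400, the median difference from the 5-mer median 0.146 and the root mean square difference between replicates 0.194. With 50 reads, 4 sites remained in replicate 1, 11 in replicate 2, 4 in both (all of Jund) and 7 in replicate 2 only, with 3 above and 1 below (47.2% and 46.7% of all sites shared at 50 reads), a median fraction of 0.473, a median difference of 0.218 and a Jund mean of 0.445. Leaving out a gene was chosen after seeing the data. The median difference was 0.240 without Ier2, 0.241 without Btg1 and 0.321 without Jund; 6 sites were above without Ier2 and 2 below without Jund. Each setting changes which sites are counted, and beyond that the cause was not tested. The median difference stayed above 0 under each alternative for which it was computed, which leaves out the match within 5 nt. The other 31 of 53 alternative values stayed within 1.5 times the count or 1 SD, among them 1 transcript per gene, a match within 5 nt and 5-mer medians over shared sites. Part of that count was fixed in advance. Leaving out 1 of 2 replicates cannot move a mean of both by 1 SD. Each listed member had 1 transcript, and Jund and Btg1 kept the same shared sites without a minimum. Without a replicate the median fraction ran from 0.534 to 0.617 and the median difference from 0.269 to 0.277, which with n = 2 says nothing about stability. No paired analysis was possible because the samples form 1 group, so no replicate number is shared between groups. Coverage under 20 reads limits Jun, Ier5, Atf4, Egr1 and Btg2.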
